A study of Mus musculus with 6 samples.

Results

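Ribosome biogenesis genes and Myc were followed through single-cell RNA sequencing of mouse material whose labelled source is the YUMM2.1 melanoma cell line. The set was a list of 39 gene symbols, Myc and 38 genes of ribosome assembly, and 39 of the 39 were found among the 31053 genes of the matrices. The list was drawn up with earlier results of these libraries known, but which measured values chose it was not stated. The contrast of Bmal1 WT and Empty vector is treated as the one used, so its values are given as a description. The markers behind the contrasts between cell classes and between cycling and non-cycling cells are no members, but whether values of those contrasts entered the choice is not known. The groups used here were Empty vector and Bmal1 WT. In the study's methods, derivatives of these names were made by lentivirus from YUMM2.1, a mouse melanoma line that keeps its native Bmal1, with either no insert or wild-type Bmal1 under constitutive expression, and were sorted as pools of GFP-positive cells and not as clones. The single-cell libraries themselves are not described there, and the labels do not say whether the cells came from tumours or from culture. Both libraries held immune-like cells beside melanoma-like ones, as given below. Each group was 1 library in which 3 replicates carried hashtag antibodies (h1, h7 and h8 in Empty vector, h3, h5 and h9 in Bmal1 WT). For a further group, Bmal1 bHLH, 3 of 3 deposited files matched those of Bmal1 WT byte for byte and were counted once, and Bmal1 bHLH was not analysed here.

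Ribosomes are built in the nucleolus. RNA polymerase I copies the ribosomal DNA into a long precursor, box C/D and box H/ACA particles place its methyl groups and pseudouridines, and separate sets of assembly factors cut, fold and export the small and the large subunit. Myc is a helix-loop-helix transcription factor that binds the E-box CACGTG together with Max and is known to raise many of these genes when cells grow and divide. Bmal1, with Clock, is the activator of the circadian clock and binds the same letters.

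The E-box is shown first because both factors read it. In the RefSeq promoter windows (GRCm38.p6, 250 bases before to 50 bases after each start), 33 of the 39 members had an entry. CACGTG, which reads the same on both strands, was found in 8 of these 33 genes (24.2%) and in 2187 of all 27025 genes (8.09%). The match lay before the start in 1 member, Nop2, and after it in the other 7. The stretches around the 8 matches are printed 5′ to 3′ on the strand of the gene, with the motif in capitals.
Nop2, chr6:125131811-125131840, plus strand: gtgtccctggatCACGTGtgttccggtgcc
Pes1, chr11:3963965-3963994, plus strand: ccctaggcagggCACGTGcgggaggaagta
Tsr1, chr11:74898092-74898121, plus strand: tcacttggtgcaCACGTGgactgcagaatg
Utp4, chr8:106893643-106893672, plus strand: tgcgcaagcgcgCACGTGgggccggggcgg
Wdr43, chr17:71616220-71616249, plus strand: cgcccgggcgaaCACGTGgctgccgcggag
Utp20, chr10:88826765-88826789, minus strand: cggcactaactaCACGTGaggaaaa
Pno1, chr11:17211540-17211564, minus strand: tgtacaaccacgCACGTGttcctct
Mybbp1a, chr11:72441355-72441376, plus strand: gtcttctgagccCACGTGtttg
These 8 genes belong to the processing of the small subunit (Tsr1, Utp4, Wdr43, Utp20, Pno1), of the large subunit (Nop2, Pes1) and to the nucleolar proteins (Mybbp1a). A match is a description of the letters in the window and not a measured binding site.

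After filtering, 3978 cells of Empty vector and 2386 of Bmal1 WT remained, with a median of 5094 and 7570.5 UMIs (unique molecular identifiers, 1 per captured transcript). Exactly 1 hashtag was called in 3222 and 1621 of them, and these cells made up the replicates. Whether the 3 replicates of a group came from separate animals or cultures was not stated, so p-values measure the spread between these replicates, which may be technical, and group and library cannot be told apart. A cell was put in a class when it showed at least 2 markers of that class and more than of any other, which placed 5635 of 6364 cells. Melanoma-like cells numbered 147 in Empty vector and 379 in Bmal1 WT, T-like cells 1132 and 371, NK-like cells 1117 and 408, macrophage- or monocyte-like cells 696 and 399, dendritic-like cells 334 and 212, and fibroblast-like cells 142 and 238. The melanoma-like gate rested on neural crest genes such as Sox10 and S100b, because the pigment genes Mlana and Tyrp1 were at 0 UMIs in these cells and Dct, Tyr and Pmel at no more than 2 each in Empty vector and 6 in Bmal1 WT. Y-linked transcripts without Xist or Ptprc were seen in 50.3% and 63.9% of its cells, and also in 4 and 24 fibroblast-like cells. In replicate h7 none of the 8 melanoma-like cells had them and 4 of the 8 had Xist. Over each library, Xist was seen in 9.52% and 3.17% of melanoma-like cells and in 95.6% and 95.7% of T-like cells. In the study's methods these vectors were put into melanoma cells, and no immune cells are named as given them. Doublets were not removed, and 952 and 566 cells held at least 2 markers of a second class. Arntl, the gene of Bmal1, was read at 61.4 ± 15.7 counts per 1000000 UMIs (CPM; SD, n = 3) in melanoma-like cells of Empty vector and at 58.5 ± 9.69 in those of Bmal1 WT. The assay reads the 3′ end, and whether the vector carries the end of the native gene was not stated, so this level does not check the labels.

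The members differed between classes more by lineage than as 1 block (the map of members by class). Of the 39 members, 19 had their highest mean level in fibroblast-like cells, 11 in T-like cells, 4 in NK-like cells and 3 in melanoma-like cells, while 16 were lowest in macrophage- or monocyte-like and 15 in dendritic-like cells. Much of the fibroblast-like count came from a single barcode of Bmal1 WT h3, described below: without the barcodes over 300000 UMIs, 18 members were highest in T-like, 7 in fibroblast-like, 7 in melanoma-like and 5 in NK-like cells. Myc (ENSMUSG00000022346, GRCm38 chr15:61985391-61990374) had the widest range of the 39. Its mean over the 6 replicates was 126 CPM in NK-like, 80.4 in T-like, 45.4 in fibroblast-like, 34.6 in melanoma-like, 24.5 in macrophage- or monocyte-like and 11.6 CPM in dendritic-like cells. Over the replicates it ran from 85.0 to 166 CPM in NK-like cells and from 57.4 to 111 in T-like cells, which overlapped, and from 7.90 to 17.6 CPM in dendritic-like cells, below every T- and NK-like replicate. Rrs1 (ENSMUSG00000061024, GRCm38 chr1:9545408-9547455), an assembly factor that brings the 5S particle into the large subunit, was ordered otherwise. Its mean was 65.7 CPM in fibroblast-like, 41.1 in melanoma-like, 25.5 in T-like, 22.0 in NK-like, 17.6 in macrophage- or monocyte-like and 15.7 CPM in dendritic-like cells. The first of these rested on the same barcode, without which the fibroblast-like replicates ran from 18.2 to 47.1 CPM and overlapped the melanoma-like ones, from 26.5 to 59.0 CPM. No class lacks these genes, so no class gives a level for free RNA.

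**Figure D1:**
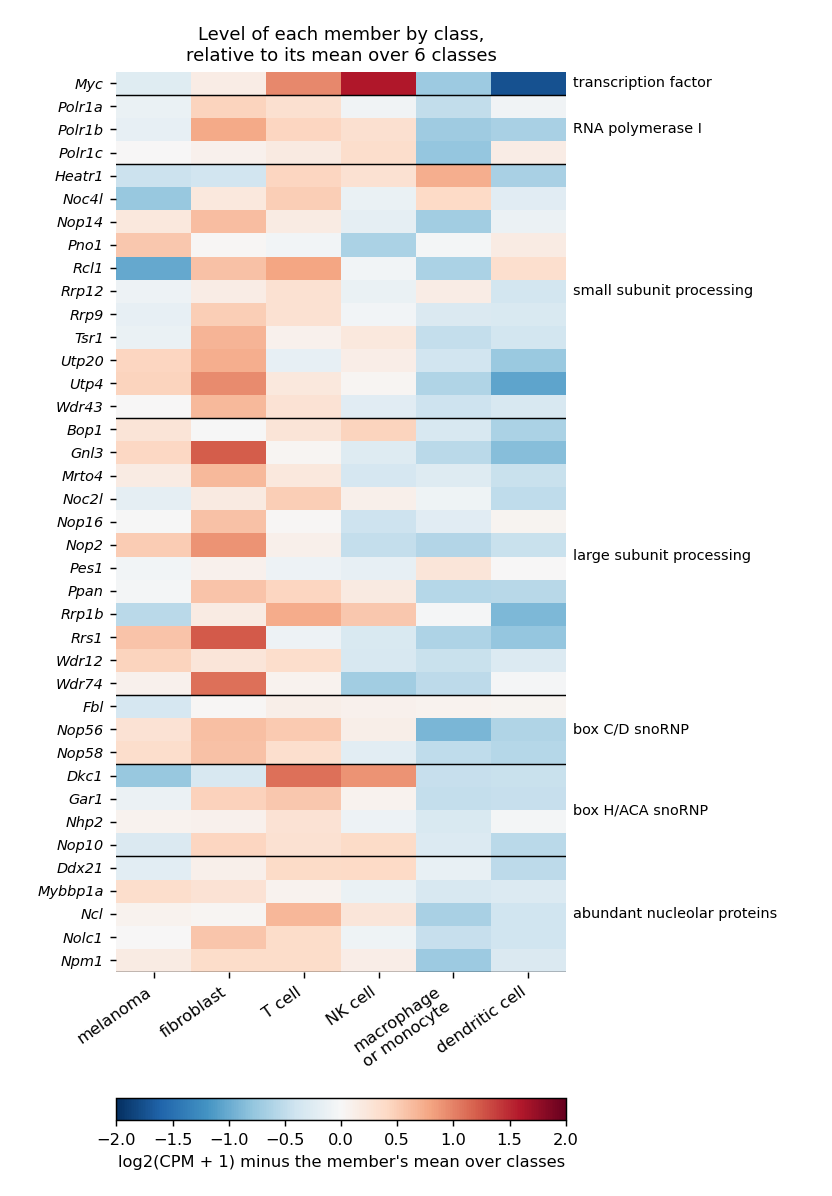
Level of each of the 39 members (rows, ordered by role) in 6 classes (columns), as log2(CPM + 1) of the mean over 6 replicates minus the member's own mean over the classes; red is higher and blue lower. Myc runs from 11.6 CPM in dendritic-like to 126 CPM in NK-like cells, and most rows are blue in the 2 myeloid classes. The fibroblast-like column includes the deep barcode of Bmal1 WT h3.

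The first tested contrast asked how melanoma-like cells compare with immune cells of the same replicate. Immune cells here were those of any immune class with a Ptprc UMI, which was not asked of the lymphoid and myeloid sets below. In Empty vector, Ptprc was at 3012 CPM in NK-like, 1845 in T-like, 1007 in macrophage- or monocyte-like and 702 in dendritic-like cells. The part of this choice in the contrast was not tested. The members did not move as a block. In edgeR's quasi-likelihood test on UMIs summed per replicate, with the replicate as a block, 9 of 39 were higher and 9 lower in melanoma-like cells at an adjusted p under 0.05. Over all 11653 genes tested, 32.3% were higher and 30.7% lower, and neither share was exceeded by the members. Their median log2 fold change was 0.07, beside 0.03 for all genes. With DESeq2 the split was 3 higher and 11 lower (27.9% and 35.5% of genes), and with TMM scaling 6 and 10 (30.3% and 33.5%).

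Rrs1 was higher in melanoma-like cells. It was read at 47.4, 26.5 and 42.2 CPM in Empty vector and at 29.6, 41.9 and 59.0 CPM in Bmal1 WT, against 21.1, 20.1 and 22.9 and 18.3, 21.2 and 19.9 CPM in immune cells. All 6 melanoma-like values lay above all 6 immune values, and the log2 difference was 1.02 ± 0.17 (SE, adjusted p = 0.000553). The lowest melanoma-like value, 26.5 CPM, was that of h7, which rests on 8 cells. Also among the large subunit factors, Gnl3, a nucleolar GTPase, was higher by 0.81 ± 0.22 and the rRNA methyltransferase Nop2 by 0.78 ± 0.26, and among the small subunit factors Utp20 by 0.81 ± 0.22 and Utp4 by 0.71 ± 0.20. The nucleolar protein Mybbp1a and the box C/D protein Nop58 were higher by 0.48 ± 0.13 and 0.50 ± 0.17.

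Myc was lower in melanoma-like cells. Its 6 replicate values were 34.4, 35.3 and 31.4 CPM in Empty vector and 36.3, 38.9 and 31.4 CPM in Bmal1 WT, against 74.8, 60.7 and 62.4 and 63.5, 41.3 and 65.4 CPM in immune cells. The 2 sets of 6 did not overlap, though the closest values were 38.9 and 41.3 CPM, and the log2 difference was -0.80 ± 0.17 (adjusted p = 0.00252). The immune mean is itself a mix, with Myc high in lymphoid and low in myeloid cells. Below the immune level stood also Noc4l (-1.13 ± 0.18), Rcl1 (-1.10 ± 0.23) and Heatr1 (-1.08 ± 0.21), all of the small subunit pathway, and Dkc1, the pseudouridine synthase of the box H/ACA particle (-1.09 ± 0.25). Dkc1 was at 0 UMIs in the melanoma-like cells of h7, a replicate with 8 such cells. Of the 3 members with the most UMIs, Nop10 was lower (-0.37 ± 0.14), and Npm1 (0.20 ± 0.19) and Ncl (-0.01 ± 0.14) were not called.

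Of the genes fixed as further ribosome biogenesis genes, 24 of 90 were higher and 13 lower, with a median of 0.10. Of 15 Myc targets outside the pathway, 8 were higher and none lower, among them the cell cycle kinase Cdk4 (1.43 ± 0.19) and lactate dehydrogenase Ldha (1.05 ± 0.14). Of 10 measured Myc network genes 6 were lower and 1, Mxi1, higher. When melanoma-like cells were chosen by Y-linked transcripts, 15 members were higher and 6 lower, beside 32.3% and 31.1% of genes. Without the barcodes over 300000 UMIs the same choice gave 9 and 9, beside 32.0% and 30.5%.

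Within immune cells, the members were lower in myeloid (macrophage, monocyte and dendritic) than in lymphoid (T and NK) cells. At an adjusted p under 0.05 in edgeR, 28 of 39 were lower and 1 was higher, where 47.1% of the 10577 genes tested were lower and 27.0% higher. The median was -0.60 for the members and -0.29 for all genes, a shift that depends on scaling by total UMIs. With TMM scaling, which put the median of all genes at 0.01, 17 members were lower and 2 higher with a median of -0.30, where 32.1% of genes were lower and 36.2% higher. DESeq2 also gave 17 and 2, beside 29.1% and 32.6% of genes. Myc differed most among the members. It stood at 129, 83.0 and 92.7 CPM in lymphoid cells of Empty vector and at 105, 67.0 and 129 CPM in those of Bmal1 WT, and from 13.8 CPM (h1) to 21.8 CPM (h7) in the myeloid cells of the 6 replicates. The ranges lay far apart, and the log2 difference was -2.46 ± 0.17 (adjusted p = 2.87e-07; TMM -2.16, DESeq2 -2.17). Next came Dkc1 (-1.59 ± 0.17), the box C/D core protein Nop56 (-1.18 ± 0.08), the polymerase I subunit Polr1b (-1.17 ± 0.21) and Rrp1b (-1.04 ± 0.12).

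In edgeR scaled by total UMIs, all 3 RNA polymerase I subunits, all 4 box H/ACA proteins and 4 of 5 nucleolar proteins were lower in myeloid cells. So were 7 of 11 small subunit factors and 7 of 12 large subunit factors, beside 47.1% of all genes in that fit. Counts by role with TMM scaling or DESeq2, which called fewer members lower, are not given. Ncl (nucleolin) fell from 607 ± 66.1 to 352 ± 41.1 CPM in Empty vector and from 886 ± 56.3 to 367 ± 57.9 CPM in Bmal1 WT (-1.03 ± 0.11), and Npm1 (nucleophosmin) was lower by -0.80 ± 0.07 on the log2 scale. Rrs1 was lower at -0.54 ± 0.14 (adjusted p = 0.00447), but was not called with TMM scaling (-0.24, adjusted p = 0.15) or DESeq2 (-0.27, adjusted p = 0.252). Pes1 of the large subunit PeBoW complex was the member called higher (0.26 ± 0.10), while its partners in that complex, Bop1 (-0.79 ± 0.13) and Wdr12 (-0.54 ± 0.16), were called lower. Of the 90 further ribosome biogenesis genes, 57 were lower and 5 higher, and of 83 cytosolic ribosomal protein genes 73 were lower and 2 higher. The cell cycle list, 12 of 12 genes, was lower in myeloid cells too, with a median of -2.28, and its part in the members' difference was not tested here.

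Cycling and non-cycling T- and NK-like cells were compared next, and most members were higher in the cycling ones. A cell counted as cycling with UMIs from at least 3 of 12 cell cycle genes and as non-cycling with none, and the 12 genes include no member. Of 38 members tested (Wdr74 fell under the minimum of 100 summed UMIs), 23 were higher and 1 lower in cycling cells at an adjusted p under 0.05, against 22.7% higher and 22.5% lower among the 8790 genes tested. The median log2 fold change of the members was 0.68, beside -0.04 for all genes, and 37 of 38 were above 0. TMM scaling gave 23 and 1 (23.5% and 21.5% of genes), and DESeq2 20 and 0 (18.9% and 16.8%). Detecting several cell cycle genes also selects for depth: cycling cells had a median of 12925.5 UMIs in Empty vector and 18793 in Bmal1 WT, non-cycling cells 3830.5 and 5419, and the part of that depth was not tested. The mix of T- and NK-like cells was not held equal in both sets. Mki67 was at 126 CPM in T-like and 45.5 in NK-like cells of Empty vector, and at 293 and 165 in Bmal1 WT. Mean Ncl was 831 CPM in T-like and 618 in NK-like cells, and mean Myc 80.4 and 126. The part of this mix was not tested.

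The rise ran through most roles. The 3 box C/D proteins were all higher, with Nop58 at 1.28 ± 0.16 and Nop56 and the methyltransferase Fbl each at 0.68. Of the box H/ACA particle, Nhp2 (1.17 ± 0.15), Gar1 (1.06 ± 0.15) and Dkc1 (0.74 ± 0.15) were higher, while Nop10 stood at 0.28 ± 0.12 (adjusted p = 0.0891 in edgeR). Of the nucleolar proteins 4 of 5 were higher, of the large subunit factors 9 of 11 and of the small subunit factors 4 of 11. The 3 RNA polymerase I subunits were not called, with values from 0.24 to 0.35. Ncl showed the pattern in every replicate. In non-cycling cells it was at 454, 579 and 482 CPM in Empty vector and 602, 471 and 599 CPM in Bmal1 WT, and in cycling cells at 853, 859 and 1075 and at 1536, 1327 and 1422 CPM. The lowest cycling value lay above the highest non-cycling one, and the log2 difference was 1.12 ± 0.11 (adjusted p = 2.95e-06). Mrto4, a large subunit factor, was higher by 1.15 ± 0.18 and Npm1 by 0.85 ± 0.09.

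Rrs1 and Myc parted here. Rrs1 was at 18.8, 23.9 and 20.1 CPM in non-cycling cells of Empty vector and at 16.1, 16.4 and 19.1 CPM in those of Bmal1 WT, and at 38.8, 19.6, 41.4, 22.3, 44.7 and 34.1 CPM in the cycling cells in that order. It was higher in cycling cells in 5 of 6 replicates, h7 being the exception, with a log2 difference of 0.79 ± 0.22 (adjusted p = 0.0106). Myc was at 125, 87.6, 100.2, 118, 85.0 and 111 CPM in non-cycling and at 83.4, 74.1, 67.2, 85.6, 44.7 and 132 CPM in cycling cells. It was lower in 5 of 6 replicates, h9 being the exception, by -0.44 ± 0.14 (adjusted p = 0.0193). That call was lost without h1 (-0.41), h8 (-0.41) or h5 (-0.37), with DESeq2 (-0.42) and in the fit without the replicate block (-0.44). The plot of single replicates shows both patterns. Outside the members, 33 of 88 further ribosome biogenesis genes were higher and 2 lower, and of the 15 Myc targets 14 were higher and 1 lower, led by the mitochondrial folate enzyme Mthfd2 (2.14 ± 0.24) and the transferrin receptor Tfrc (1.93 ± 0.14). Of 9 Myc network genes 6 were lower, among them the Myc antagonists Mxd1 (-1.42 ± 0.20) and Mxd4 (-1.26 ± 0.19), while Mxd3, known for its expression in dividing cells, was higher (6.21 ± 0.49). The cytosolic ribosomal protein genes did not follow, with 24 of 82 higher, 9 lower and a median of 0.03.

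**Figure D2:**
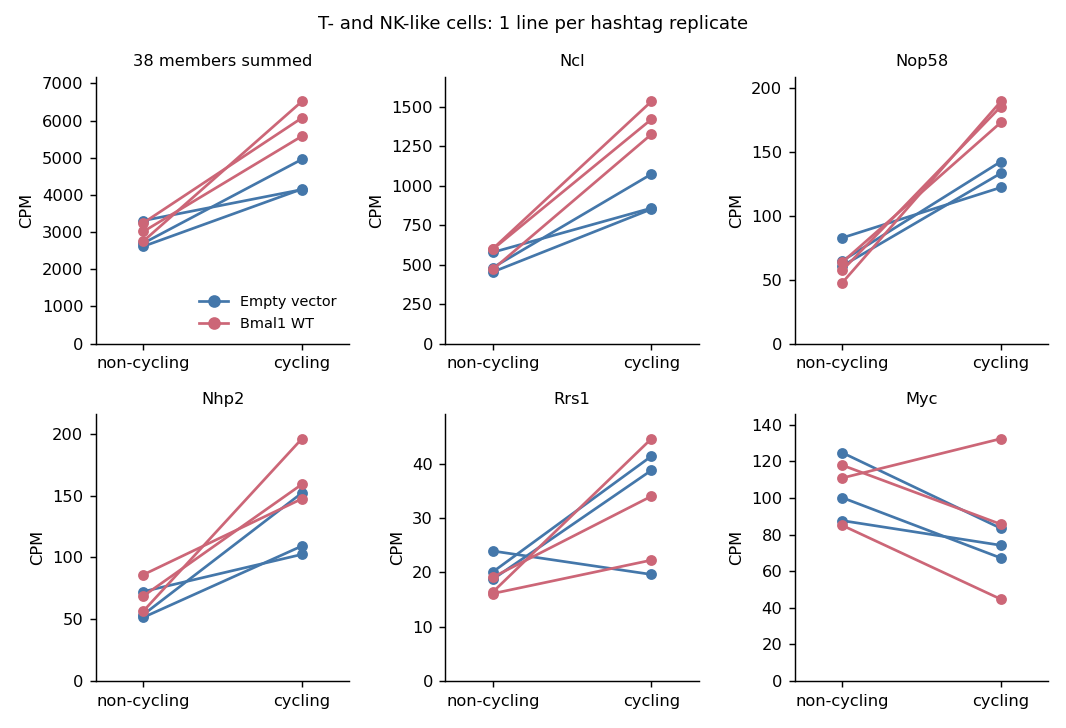
CPM of the 38 summed members (Myc left out), of Ncl, Nop58, Nhp2, Rrs1 and Myc in non-cycling and cycling T- and NK-like cells, with 1 line per hashtag replicate (blue Empty vector, red Bmal1 WT). All 6 lines rise for the sum, Ncl, Nop58 and Nhp2, 5 of 6 rise for Rrs1 and 5 of 6 fall for Myc.

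The same split among melanoma-like cells rested on few cells, with 2 cycling and 3 non-cycling ones in h7. None of 34 members passed an adjusted p of 0.05 in edgeR, against 1.39% of 7543 genes higher and 0.331% lower, and 1 member had an unadjusted p under 0.05 (9.82% of genes). The median was 0.32 (0.11 over all genes), Nhp2 stood at 1.63 ± 0.50 (adjusted p = 0.133), Rrs1 at 0.32 ± 0.44 and Myc at 0.23 ± 0.44. Ncl stood at 0.29 ± 0.30.

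Between the groups, over all cells with 1 hashtag, 29 of 39 members had a higher level in Bmal1 WT, with a median log2 fold change of 0.26 beside -0.02 for all genes. This contrast is treated as the one that chose them. The 38 members summed (Myc left out) were at 2689, 3069 and 2796 CPM in Empty vector and at 3679, 3281 and 3218 CPM in Bmal1 WT, without overlap. None of the 39 was called at an adjusted p under 0.05 in edgeR, as none of all 12042 genes was (background 0%); at an unadjusted p under 0.05 there were 15 members and 2936 genes (24.4%), and DESeq2 called 6 members and 8.18% of genes. Rrs1 was at 25.4, 20.6 and 25.2 CPM in Empty vector and at 35.4, 33.8 and 35.7 CPM in Bmal1 WT, 0.56 ± 0.13 on the log2 scale. Wdr74 had the largest value, 1.25 ± 0.28, on 218 UMIs in all, with 2.27, 2.02 and 3.11 CPM against 6.85, 5.91 and 4.94. Then followed Nop2 (0.64 ± 0.25), Nop14 (0.57 ± 0.13) and Mybbp1a (0.53 ± 0.14). Myc pointed the other way, with 65.3, 55.4 and 55.5 CPM in Empty vector and 61.2, 40.9 and 47.7 CPM in Bmal1 WT, which overlapped (-0.23 ± 0.17). In bulk sums of this kind, more cells of a class and more RNA per cell cannot be told apart, so the classes were taken one by one.

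Melanoma-like cells, the class to which the vectors were given, showed little of the all-cell difference. The 38 members summed were at 3410, 2447 and 3359 CPM in Empty vector and at 3192, 3268 and 3509 CPM in Bmal1 WT, with overlapping ranges. Over 37 members tested the median log2 fold change was 0.04 and 21 were above 0, and neither a member nor any of 8633 genes (0%) passed an adjusted p of 0.05 in edgeR, with 306 genes (3.54%) and 0 members at an unadjusted p under 0.05 and 6 genes, none a member, called by DESeq2. Rrs1 was at 0.04 ± 0.31 and Myc at 0.10 ± 0.24, intervals that leave room for changes of the size seen over all cells. The choice of cells mattered. With clusters in place of the marker gate the median was 0.37, and with cells chosen by Y-linked transcripts it was 0.38 with Rrs1 at 1.10. Leaving out the barcodes over 300000 UMIs from the latter brought the median to 0.09 and Rrs1 to 0.75. Counted over every melanoma-like cell, hashtag or none, Rrs1 was at 46.4 CPM in Empty vector (exact Poisson 95% interval 41.0 to 52.3) and 50.3 CPM in Bmal1 WT (46.8 to 54.0), and Myc at 34.8 (30.1 to 40.0) and 41.6 CPM (38.4 to 45.0), intervals that cover counting error only.

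In T-like cells most members had a higher level in Bmal1 WT. The 38 members summed were at 3002, 3231 and 3535 CPM in Empty vector and at 4599, 5155 and 4391 CPM in Bmal1 WT, without overlap. The median over 38 members was 0.39 beside -0.10 for all genes, and 34 of 38 were above 0. Of the members 1 was called in edgeR, Ncl (0.77 ± 0.10, adjusted p = 0.0461), where 0.171% of 8186 genes were. As this contrast is treated as the one that chose the members, the call is a description and not a test of them. That call was lost without h1, h7, h5 or h9 and under the stricter gate, and DESeq2 called 7 members and 3.43% of genes. Nop2 was at 5.81, 11.1 and 7.52 CPM in Empty vector and 17.9, 18.3 and 17.0 CPM in Bmal1 WT (1.20 ± 0.31), followed by Gar1 (0.79 ± 0.18), Nop16 (0.73 ± 0.20) and Dkc1 (0.72 ± 0.15). Myc (-0.02 ± 0.27) and Rrs1 (0.08 ± 0.25) had overlapping ranges. The cell cycle list was higher as well, 12 of 12 genes above 0 with a median of 1.35 and none called, and so were 81 of 82 ribosomal protein genes, with a median of 0.31.

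The other immune classes showed less. In NK-like cells the median of 37 members was 0.12 with 27 above 0 and none called (0.136% of genes called), and without h3 the median was -0.15. There the largest values were Rrp1b (0.57 ± 0.27), Noc4l (-0.53 ± 0.27) and Nhp2 (0.52 ± 0.20). In macrophage- or monocyte-like cells it was 0.06 over 35 members, with 18 above 0, and in dendritic-like cells 0.03 over 28. No member was called in either, where 0% and 0.0150% of genes were, and 2 and 1 members had an unadjusted p under 0.05 (14.4% and 15.9% of genes). In fibroblast-like cells the median was 0.81 over 24 members, 22 of them above 0, with none called (0.0230% of genes called). At an unadjusted p under 0.05 there were 7 members and 10.5% of genes. These counts include the deep barcode of h3, and without h3 the median was 0.43. Rrs1 stood at 1.67 ± 0.68 and Nop14 at 2.82 ± 0.94. The plot of members by class shows these medians, with the median of all genes tested in each class beside them. For no group contrast is the share of all genes above 0 given, so the counts of members above 0 stand without a background.

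**Figure D3:**
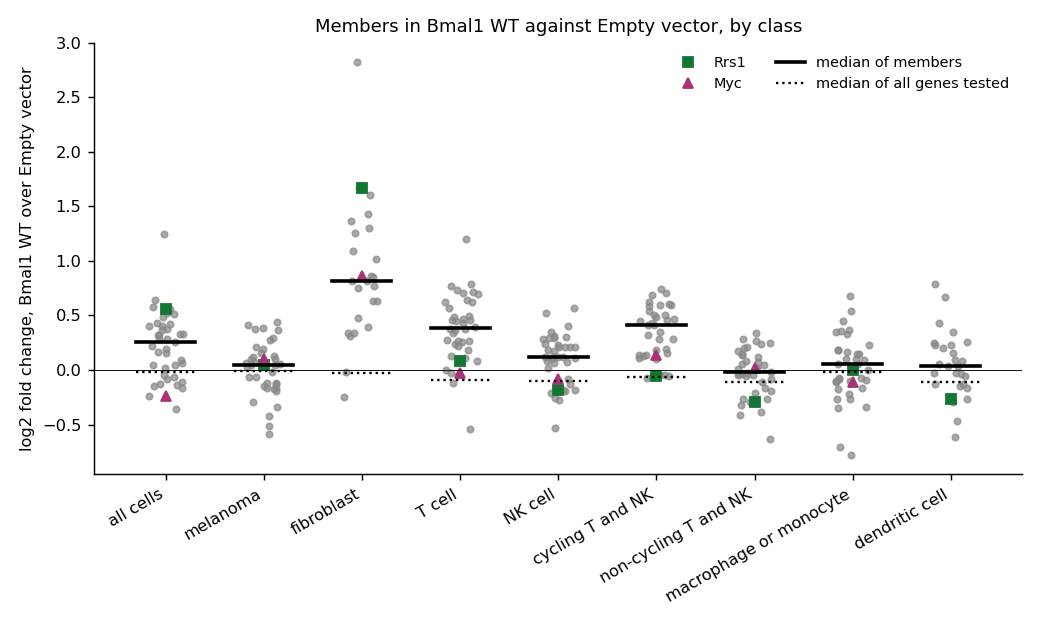
Log2 fold change of each tested member, Bmal1 WT over Empty vector, in all cells and in each class (grey points; green square Rrs1, purple triangle Myc), with the median of the members (bar) and of all genes tested (dotted). The medians are 0.26 over all cells, 0.04 in melanoma-like, 0.81 in fibroblast-like, 0.39 in T-like and 0.41 in cycling T- and NK-like cells, and -0.02 in non-cycling ones.

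Splitting T- and NK-like cells by the cell cycle list separated the difference further. In cycling cells the 38 members summed were at 4157, 4143 and 4957 CPM in Empty vector and at 6071, 6516 and 5580 CPM in Bmal1 WT, without overlap, and the median of 35 members was 0.41 with 30 above 0. In non-cycling cells the sums were 2616, 3308 and 2701 and 3248, 2757 and 3015 CPM, which overlapped, and the median of 37 members was -0.02 with 18 above 0. No member was called in either set, where 0% of 5778 and 0.576% of 7813 genes were; at an unadjusted p under 0.05 there were 11 and 0 members, and 8.64% and 14.8% of genes. Without h7 the medians were 0.25 and 0.09, and without h5 0.34 and 0.10. In cycling cells the largest values were Nop14 (0.74 ± 0.33), Wdr12 (0.71 ± 0.29) and Nop16 (0.69 ± 0.30), with Ncl at 0.62 ± 0.14. Fitted as an interaction, the group difference in cycling minus that in non-cycling cells had a median of 0.38 over 38 members, with Nop58 at 0.71 ± 0.26 and Ncl at 0.48 ± 0.18. No member was called there (0.0569% of 8790 genes were, and 2 members and 4.73% of genes had an unadjusted p under 0.05), and without h5 the median was 0.12 and without h7 0.20. The group difference in melanoma-like minus that in immune cells had a median of -0.14 over 39 members, with Rrs1 at 0.13 ± 0.34, none called, 0 of all 11653 genes called (0%) and no member at an unadjusted p under 0.05 (5.08% of genes). Without h8 that median was 0.03.

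Cycling cells were also more frequent. They made up 6.06 ± 1.03% (SD, n = 3) of T- and NK-like cells in Empty vector and 12.6 ± 3.16% in Bmal1 WT. With each cell thinned to 3000 UMIs, which left out 554 and 67 shallower cells, the shares were 5.25 ± 0.97% and 10.9 ± 1.21%. The single thinned values were 4.66, 4.72 and 6.37% against 11.6, 11.5 and 9.48%, without overlap, and no test was run.

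The all-cell difference was then written as a part from the classes' shares of UMIs and a part from the levels within classes. The 38 members summed rose from 2804 to 3429 CPM over the pooled cells with 1 hashtag, a difference of 625 CPM, of which 157 came from class mix and 469 from levels within classes. Among classes, the largest parts from levels were cycling T- and NK-like cells with 136 CPM and fibroblast-like cells with 128 CPM, followed by the remaining NK-like (62.7) and T-like cells (52.5), while melanoma-like cells gave -12.0 CPM. In that class pooling turned the sign, since the mean of the 3 replicate sums was 3072 CPM for Empty vector and 3323 CPM for Bmal1 WT. The melanoma-like share of UMIs grew from 14.4% to 31.0% and gave 35.6 CPM through mix. The mix part of a class counts the distance of its level from that over all cells. The single genes divided differently. For Rrs1 the difference of 10.5 CPM was 6.87 from mix and 3.59 from levels, and for Npm1 the 275 CPM were 77.1 and 198. Ncl differed by 106 CPM, with 16.3 from mix and 89.7 from levels. Myc differed by -9.29 CPM, with -11.3 from mix and 1.96 from levels. The largest mix parts for Myc came from the remaining NK-like cells (-6.32 CPM), melanoma-like cells (-3.34) and the remaining T-like cells (-3.28). The remaining cells are all those not called cycling, a wider set than the non-cycling cells compared above. For 13 of 39 members the mix part was the larger, and for 12 the parts had opposite signs. Over all cells of each library, with or without a hashtag, the sum differed by 646 CPM, 165 from mix and 481 from levels.

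**Figure D4:**
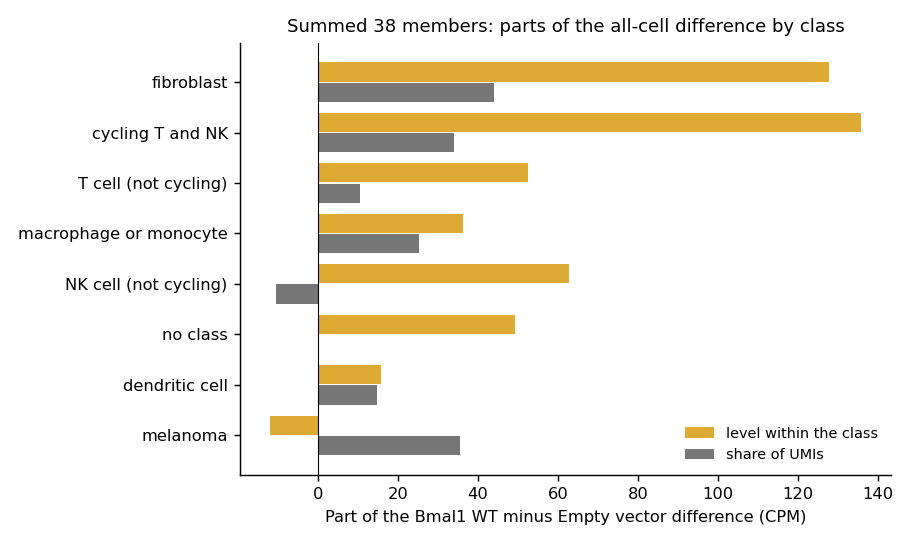
Parts of the Bmal1 WT minus Empty vector difference of the 38 summed members, in CPM, from each class's level (yellow) and share of UMIs (grey), for classes whose parts together exceed 5 CPM; T and NK bars leave out the cycling cells, which have their own. Cycling T- and NK-like and fibroblast-like cells hold the largest level parts, 136 and 128 CPM, and melanoma-like cells -12.0 CPM.

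A single deep barcode lay within the fibroblast-like part. In Bmal1 WT h3, 1 barcode held 333533 UMIs and passed the fibroblast gate with 2 markers, but carried Y-linked transcripts (23 UMIs) and was at 0 UMIs for Xist. It held 4662 UMIs of the 38 members, 13978 CPM, among them 1515 of Npm1 and 146 of Rrs1 (438 CPM), and was 3.41% of the UMIs of its replicate. Fibroblast-like cells with Y-linked transcripts and neither Xist nor Ptprc were 3 of 20, 5 of 14 and 1 of 15 in h3, h5 and h9. In h1, h7 and h8 of Empty vector they were 1 of 15, 0 of 8 and 0 of 11. Their part in the group difference was not tested, and the fibroblast-like level part without the deep barcode is not given. Over all barcodes of the melanoma-like and Y-linked sets with at least 10000 UMIs the sum had a median of 2958 CPM (Empty vector, 88 barcodes) and 3200 CPM (Bmal1 WT, 291 barcodes). Without the 3 barcodes over 300000 UMIs, the fibroblast-like sums were 2905, 3509 and 2076 CPM in Empty vector and 3465, 3042 and 3567 CPM in Bmal1 WT, and the median was 0.32 over the 14 members still tested (0.81 had been over 24), with none at an unadjusted p under 0.05 (9.07% of genes). Over all cells the median then was 0.16 in place of 0.26, Rrs1 0.38 in place of 0.56, with h3 at 21.2 CPM in place of 35.4, and the 38 members summed still did not overlap (2665, 3069 and 2796 against 3315, 3281 and 3218 CPM). The difference of the pooled sum was then 487 CPM, 114 from mix and 372 from levels.

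**Figure D5:**
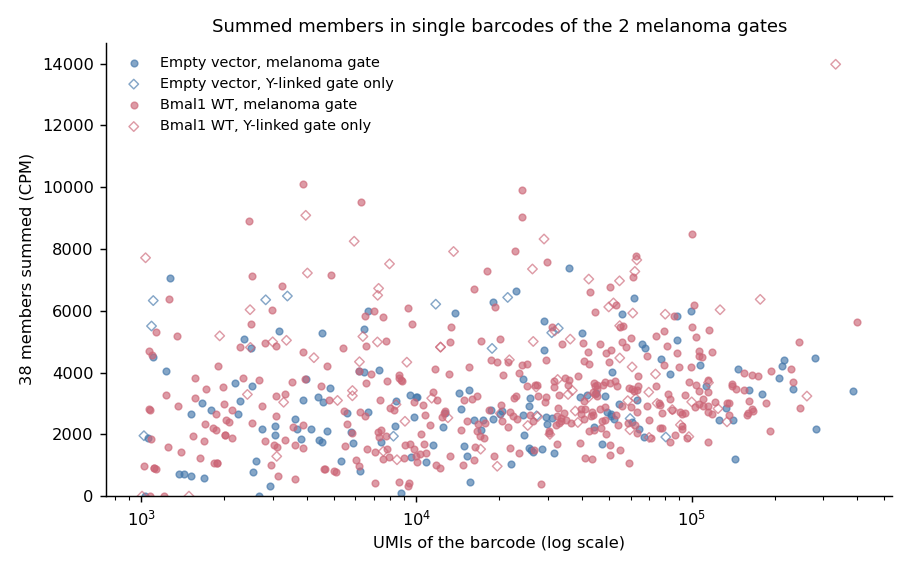
The 38 summed members in CPM against the UMIs of each barcode (log scale), for barcodes of the melanoma-like marker gate (filled) and those chosen only by Y-linked transcripts (open), with at least 1000 UMIs; blue is Empty vector and red Bmal1 WT. The open red point at 333533 UMIs and 13978 CPM stands above all others.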

How the data were processed

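Libraries were made with a droplet 3′ kit (10x Genomics, version 3.1), and the authors deposited raw UMI counts per gene and hashtag and barcode, made with Cell Ranger 6.1.2 per the file headers, on mm10 per the labels and filtered to barcodes called as cells. The aligner settings and use of strand are not given in the sources used here. Cells with at least 200 genes and at most 20% mitochondrial UMIs were kept. Hashtags were called by a mixture model per tag, and cells with none or several entered no replicate. UMI counts were summed per replicate and class, and genes with at least 100 UMIs were tested with edgeR 4.0.16 (R 4.3.3) quasi-likelihood fits, scaled by total UMIs and adjusted by Benjamini-Hochberg over all genes tested. DESeq2 1.42.0 and limma 3.58.1, clusters from scanpy 1.11.5 and other gates were alternatives. The replicate was a block where both sums came from it. The fits were tested on simulated counts. Levels are counts per 1000000 UMIs (CPM). The libraries shared 5 barcodes, which were kept. The mix part of a class was its change in share times the distance of its level from that over all cells, both as means of the groups. The level part of a class was its change in level times its mean share. Named were Rrs1, Myc, the 5 members with the largest change and the 3 with the most UMIs in each comparison, and of the other lists at most 4 genes; further members were named after their values were seen, to show a role. The members and lists were chosen with earlier results of these data known, as were the splits by cycling between the groups, the Y-linked choice of cells and the limit of 300000 UMIs. Gene positions are from GENCODE (GRCm38) and promoters from RefSeq (GRCm38.p6).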

Additional observations from a re-analysis of the deposited data

Results flagged for a closer look

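For 2 members, the difference between classes pointed one way in every Empty vector replicate and the other way in every Bmal1 WT replicate. These 2 were picked by the signs of their ratios, out of all members and several ratios between sets of cells. How many of all genes would meet the same rule was not counted. A search of this kind can return some members by chance, so the 2 are given as a description and not as a group difference. Tsr1, a small subunit GTPase-like factor, was lower in melanoma-like than in immune cells in Empty vector (log2 ratios -0.08, -0.60 and -0.43) and higher in Bmal1 WT (0.06, 0.74 and 0.21), and the mean ratios differed by 0.705. Nop2 was higher in myeloid than in lymphoid cells in Empty vector (0.53, 0.08 and 0.07) and lower in Bmal1 WT (-0.62, -1.20 and -0.80), with a difference of -1.10. For Tsr1 the difference fitted as an interaction in edgeR was 0.63 ± 0.34 (adjusted p = 0.910), and for Nop2 it was not tested.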

How the results depend on the processing

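Of 234 counts of called members under the alternatives, 212 stayed within 1.5 times the main count, and of 234 medians 218 moved by less than the spread between replicates. A count of 0 beside a main count of 0 was tallied as unchanged. The main count was 0 in every group contrast but that of T-like cells, in both interactions and in cycling against non-cycling melanoma-like cells. The tally of counts is therefore no measure of robustness there. The tally of medians is a loose one too, as wide spreads let large moves pass. In fibroblast-like cells the spread between replicates was 0.55 with the deep barcode included. The fall of that median without the barcodes over 300000 UMIs was thus tallied as unchanged. For both interactions the spread of a single class was used. Each group was 1 library with few melanoma-like cells per replicate, which limits every group difference in that class. Melanoma-like against immune gave 8 called members with limma on the mean CPM per cell and 10 to 22 when 1 replicate was left out, with 10 both without h8 and without h5. Myeloid against lymphoid gave 19 with TMM scaling and 19 with DESeq2 (24 to 30 without 1 replicate), and cycling against non-cycling T- and NK-like cells 19 to 25 without 1 replicate. The fit without the replicate block gave 21, 28 and 26 called members in these 3 contrasts. For cycling against non-cycling melanoma-like cells, 1 member was called without a gene filter, with clusters, with cells chosen by Y-linked transcripts with or without the barcodes over 300000 UMIs, and without h5 (0 to 1), and Myc changed sign with clusters (-0.15) and without h9 (-0.0256 to 0.5007 over the replicates left out). Between the groups, T-like cells gave 7 called members with DESeq2, 8 without a gene filter, 0 under the stricter gate, 7 with clusters and 0 to 2 without 1 replicate. Without a gene filter fibroblast-like cells gave 4 and cycling T- and NK-like cells 1, and DESeq2 gave 6 over all cells. Among the alternatives, the share of all genes called was given above only for some fits with TMM scaling, DESeq2 or the Y-linked choice. For the others no such share is given, so their counts show only how the number called moved. Alternatives added after the data were seen were the Y-linked choice, the limit on UMIs, cells with markers of 1 class and the set without barcodes under 0.5% mitochondrial UMIs. The causes were not tested.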

Other observations

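Most melanoma-like cells carried no hashtag, 80 of 147 in Empty vector and 250 of 379 in Bmal1 WT, and so entered no replicate. Of the melanoma-like barcodes, 53 and 118 had under 0.5% mitochondrial UMIs. Cytosolic ribosomal protein transcripts summed over all cells with 1 hashtag stood at 163136 CPM (Empty vector) and 190588 CPM (Bmal1 WT), a difference of 27452 CPM of which -5090 came from class mix and 32542 from levels within classes. These genes are not among the members.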
